A study of Danio rerio with 12 samples.

Results

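The genes described here are the nuclear genes of the mitochondrial respiratory chain and of the ATP synthase. They were taken by gene symbol alone, and no measured value entered the rule. A probe belonged to the set if its RefSeq accession led to a symbol that begins with nduf, uqcr or atp5, to a cox symbol continued by a digit from 4 to 8, or to sdha, sdhb, sdhc, sdhda, sdhdb, cyc1 or cycsb. The rule found 140 probes of 81 genes among the 43603 probes of the array. The 81 genes are 7 core subunits, 25 accessory subunits and 4 assembly factors of complex I, 5 genes of complex II, 8 of complex III with cytochrome c, 15 of complex IV and 17 of complex V. ndufa4a and ndufa4b were counted with complex IV, where the mammalian NDUFA4 protein sits. A further 26 of the 107 genes whose symbols meet the rule in the RefSeq table matched no probe accession and were not analysed here, among them ndufs3, uqcrfs1, cox4i1, cox8a, cox8b and atp5f1e.

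The respiratory chain passes electrons from NADH through complex I, and from succinate through complex II, by way of ubiquinone to complex III, cytochrome c and complex IV, where oxygen is reduced. Complexes I, III and IV pump protons across the inner mitochondrial membrane, and complex V lets them back to make ATP. Most of the subunits are encoded in the nucleus, and several subunits of complex IV have separate forms in contractile tissue. Oxidative muscle and heart hold much of an animal's respiratory chain. The liver X receptors are nuclear receptors for oxysterols, best known as activators of cholesterol efflux and lipid synthesis genes, and T0901317 and GW3965 are synthetic agonists of them.

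Wild type zebrafish larvae of the WIK strain were exposed from day 4 to day 6 after fertilisation in pools of 30, and RNA of the whole larvae was measured. The vehicle group received 0.1% DMSO, which both agonist groups received too. The agonists were T0901317, labelled as 2 mM, and GW3965, labelled as 1 mM, with the medium renewed after 24 h. The labelled doses differ, so a difference between the agonists is one of compound and dose together. Each group holds 4 arrays, 1 per pool. T0901317 replicate 2 was left out of the comparisons, as in the study's own design, and is given beside the values as the array left out.

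On the 11 arrays compared, between 78.83% and 83.18% of probes were well above background by the scanner's own flag, against 89.78% on the array left out. Arrays of 1 group correlated with each other at 0.9881 to 0.9943 over the genes tested. Levels are log2 processed signals after subtracting the 75th percentile of the array, so that 0 is the level of that percentile. Differences are limma estimates on the log2 scale with their SE, and a gene was called when its Benjamini-Hochberg adjusted p over all 23592 genes tested was under 0.05. Each group was hybridised on a slide of its own, with a scan date entry of its own. Treatment, slide and scan therefore cannot be told apart in any result. In whole larvae, fewer cells of a type and less RNA per cell cannot be told apart either. Levels of different probes are not set against each other.

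All 81 genes entered the fit. Of these, 80 were well above background on all 11 arrays, ndufa12 being the exception, and 75 had a mean level above the 75th percentile. The median SE of the T0901317 difference was 0.09 on the log2 scale for the respiratory chain genes and 0.13 for all genes tested.

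Against DMSO, 1 of the 81 genes rose with T0901317, cox6a2, and none fell, while 80 did not pass the test. Over all genes tested, 2.57% were called in this comparison, 1.58% higher and 0.996% lower. At an unadjusted p under 0.05 by limma, 5 of the 81 were higher and 2 lower, where 9.44% and 5.43% of all genes were. On 5 genes the T0901317 arrays lay wholly above the DMSO arrays and on 1 wholly below, where 7.95% and 4.58% of all genes did so. With GW3965, cox6a2 rose, ndufaf7 and atp5md fell, and 78 did not pass. Over all genes tested, 5.69% were called with GW3965, 1.22% higher and 4.46% lower. At an unadjusted p under 0.05, 9 of the 81 were higher and 2 lower, where 7.87% and 11.7% of all genes were. On 7 genes the GW3965 arrays lay wholly above the DMSO arrays and on 3 wholly below, where 6.11% and 8.36% of all genes did so. The called share of the set was 1.23% with T0901317 and 3.7% with GW3965. These shares rest on the few genes named above and do not set the set apart from all genes. Called shares also vary with level. Of all genes with a mean level above 4, which hold 43 of the 81, 1.22% were called higher and 0.608% lower with T0901317. With GW3965 it was 2.94% and 1.32%. Among all genes with a mean level below -2, which hold 3 of the 81, 1.89% were called higher and 1.09% lower with T0901317. With GW3965, 0.534% of these were called higher and 5.92% lower. Between -2 and 0, where the brightest ndufaf7 probe lies at a mean of -1.79, GW3965 gave 1.17% higher and 5.01% lower. The 2 comparisons share their DMSO arrays.

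For most of the set the arrays bound the change closely. With T0901317 the 95% interval of the difference lay within a 1.5-fold change in either direction for 74 of the 81 genes (91.4%, against 72.2% of all genes tested). With GW3965 it did so for 75 of the 81 (92.6%, against 74.2%). The shares of all genes include 10117 genes with a mean level below -2, which hold 3 of the 81. No share at a matched level was computed. A narrower bound of 1.2-fold held the whole interval for 31 genes with T0901317 and 35 with GW3965. The 7 genes with an interval reaching beyond 1.5-fold with T0901317 were cox6a2, ndufaf7, ndufs8b, ndufa12, sdhda, cox5b2 and ndufa4b. With GW3965 the 6 such genes were cox6a2, ndufaf7, atp5md, atp5mea, sdhda and ndufa12.

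**Figure D1:**
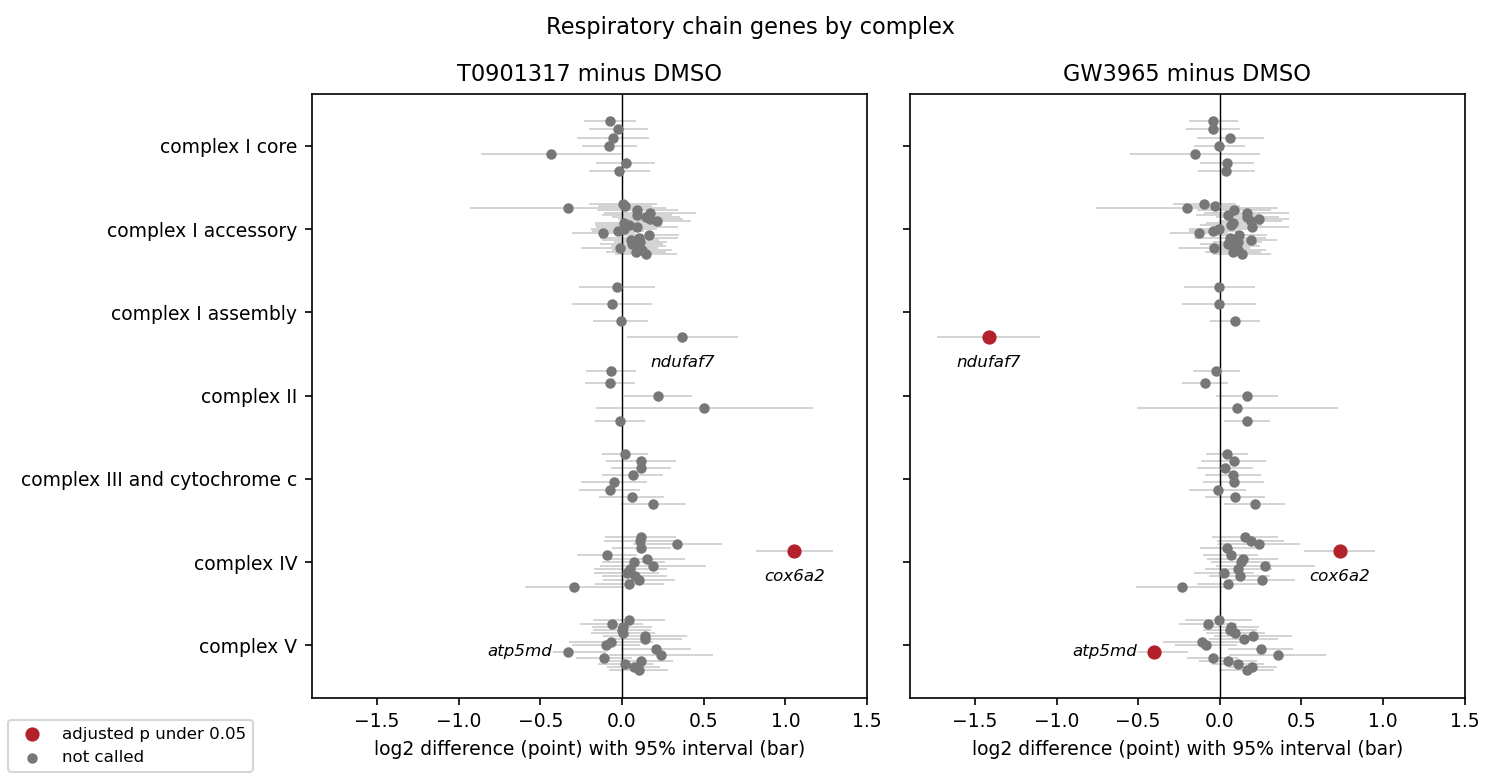
Log2 difference of each of the 81 respiratory chain genes from DMSO (horizontal axis), by complex, with T0901317 on the left and GW3965 on the right. Points are limma estimates from 4 DMSO, 3 T0901317 and 4 GW3965 arrays, and bars are 95% intervals. Red marks an adjusted p under 0.05: cox6a2 at 1.06 with T0901317, and cox6a2 at 0.73, atp5md at -0.40 and ndufaf7 at -1.41 with GW3965, while no other gene was called.

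The median log2 difference of the 81 genes was 0.05 with T0901317, beside 0.03 for all genes tested, and 0.08 with GW3965, beside 0.01. The difference was above 0 for 56 of the 81 genes with T0901317 and for 57 with GW3965, and 59% and 51.9% of all genes were above 0. Of the 81 genes, 43 had a mean level above 4, and the median of all genes in that range was 0.05 with T0901317 and 0.08 with GW3965. Genes with a level below -2, which hold 3 of the 81, had a median of 0.07 with T0901317 and -0.07 with GW3965.

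The medians of the single DMSO arrays over the set had an SD of 0.10. This is a spread of single arrays and not that of a difference between group means. Each array's median over the 81 genes, relative to the DMSO mean of each gene, was 0.09, -0.14, 0.01 and 0.03 on DMSO replicates 1 to 4. It was -0.01, 0.09 and 0.07 on T0901317 replicates 1, 3 and 4, and 0.10, 0.14, 0.04 and 0.04 on GW3965 replicates 1 to 4. The groups overlap, and DMSO replicate 2 is the lowest array compared. On it, 75 of the 81 genes were below their DMSO mean (92.6%), where 53.1% of all genes were. Without DMSO replicate 2 the median difference of the set was 0.00 with T0901317 and 0.03 with GW3965. The T0901317 array that was left out lay at -0.11, with 71 of the 81 genes below the DMSO mean.

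**Figure D2:**
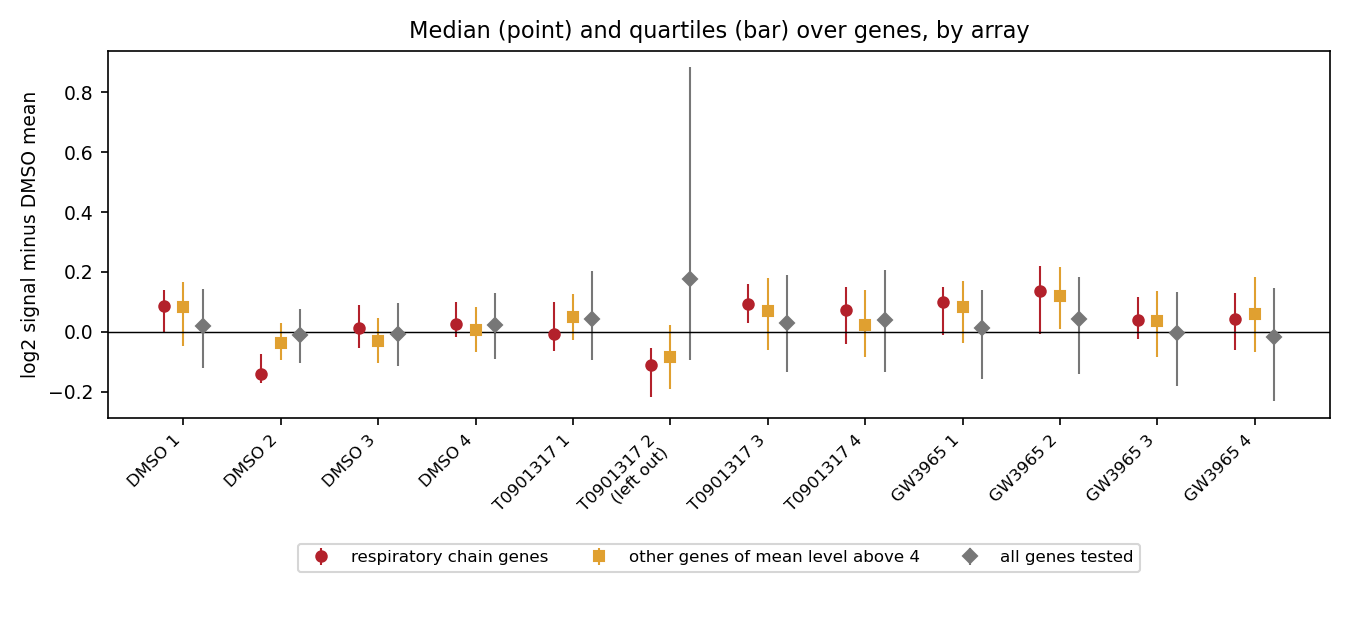
Median over genes of the log2 signal minus the DMSO mean (vertical axis) on each of the 12 arrays, for the 81 respiratory chain genes (circles), other genes of mean level above 4 (squares) and all genes tested (diamonds). Bars run from the lower to the upper quartile over genes; the respiratory chain median is -0.14 on DMSO replicate 2 and between -0.01 and 0.14 on the T0901317 and GW3965 arrays that were compared.

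Complex I takes electrons from NADH onto a flavin and passes them down a chain of iron-sulfur clusters held by its core subunits. None of the 7 core genes on the array was called with either agonist, and at an unadjusted p under 0.05 there was 1 lower with T0901317 and 0 with GW3965. Their median difference was -0.05 with T0901317 and 0.00 with GW3965, and 1 and 3 of the 7 were above 0. The flavin and NADH binding subunit ndufv1 differed by 0.02 ± 0.08 (SE) with T0901317 and 0.04 ± 0.08 with GW3965. ndufs1, the large iron-sulfur subunit, differed by -0.07 ± 0.07 and -0.04 ± 0.07, both 95% intervals lying within 1.2-fold.

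The largest core difference was that of ndufs8b, a copy of a subunit that carries a pair of clusters. It read -3.02, -2.73, -2.48 and -2.71 with DMSO, -2.90, -3.08 and -3.52 with T0901317, with -1.5 on the array left out, and -3.06, -2.52, -2.76 and -3.20 with GW3965. The groups overlap, and the array left out lies above all the others. The T0901317 difference of -0.43 ± 0.19 had an adjusted p of 0.33 by limma. Its copy ndufs8a differed by -0.08 ± 0.08 with T0901317 and 0.00 ± 0.07 with GW3965, and ndufs7, which holds the last cluster of the chain, by -0.05 ± 0.10 and 0.07 ± 0.09.

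The 25 accessory genes of complex I surround this core, and none of them was called either. At an unadjusted p under 0.05, 1 was higher with T0901317 and 2 with GW3965, and 0 were lower. The differences ran from -0.33 to 0.21 with T0901317 and from -0.20 to 0.24 with GW3965. Their median difference was 0.09 with T0901317, with 21 above 0, and 0.08 with GW3965, with 18 above 0. On DMSO replicate 2, 24 of the 25 were below their DMSO mean. ndufa7 was the accessory gene with the smallest p with T0901317. It read 3.70, 3.42, 3.48 and 3.67 with DMSO, 3.67, 3.77 and 3.89 with T0901317, with 3.62 on the array left out, and 3.71, 3.85, 3.67 and 3.80 with GW3965. The T0901317 difference was 0.21 ± 0.09 (adjusted p = 0.32). ndufa6, which belongs to the LYR motif proteins, read 5.66, 5.42, 5.43 and 5.55 with DMSO, 5.80, 5.73 and 5.54 with T0901317, with 5.45 on the array left out, and 5.70, 5.83, 5.74 and 5.77 with GW3965. All 4 GW3965 arrays lay above the 4 DMSO arrays, for a difference of 0.24 ± 0.08 (adjusted p = 0.14). ndufb6 differed by 0.05 ± 0.08 with T0901317 and 0.19 ± 0.07 with GW3965 (adjusted p = 0.18), and ndufb4 by 0.17 ± 0.08 (adjusted p = 0.40) and 0.12 ± 0.08. ndufa12, the dimmest gene of the set, was not well above background on every array and its interval with T0901317 ran from -0.93 to 0.27.

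The 4 assembly factors help build complex I and do not stay in it. On their brightest probes, ndufaf1, ndufaf2 and ndufaf5 had differences from -0.06 to 0.09 over both agonists, none of them called. The dimmer probe of ndufaf2 gave 0.21 with T0901317 and -0.53 with GW3965, also not called. ndufaf7 is a methyltransferase that mammals need to assemble the complex, and its brightest probe gave the largest difference of the whole set. That probe read -1.16, -1.64, -1.5 and -1.19 with DMSO, and -2.53, -2.82, -2.92 and -2.89 with GW3965. It read -0.73, -1.19 and -1.09 with T0901317, and -1.42 on the array left out. The GW3965 arrays lie below all the others without overlap, while the T0901317 and DMSO arrays overlap. The GW3965 level was 2.67-fold lower than DMSO (log2 difference -1.41 ± 0.14, adjusted p = 0.00045). T0901317 differed from DMSO by 0.37 ± 0.15 (adjusted p = 0.29).

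The other probe of ndufaf7 did not follow. It read -4.77, -4.67, -4.91 and -4.58 with DMSO, -4.71, -5.43 and -4.36 with T0901317, with -2.92 on the array left out, and -4.16, -4.13, -4.13 and -4.73 with GW3965. The array left out lies above all the others. On this dim probe, well above background on 10 of the 11 arrays, the GW3965 difference was 0.44 with an adjusted p of 0.30 in a limma fit of every probe. With the mean of both probes standing for the gene, the GW3965 difference was -0.48 with an adjusted p of 0.10, past the threshold no longer. Over all 25 alternative settings the GW3965 difference ran from -1.5 to -0.48, with adjusted p from 3.58e-05 to 0.099. The fall therefore belongs to 1 of the 2 probes. Which transcripts each probe binds was not tested, since no probe or gene sequence was used here.

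Complex II is succinate dehydrogenase, with a flavoprotein, an iron-sulfur protein and membrane anchors, and it is the enzyme shared with the citric acid cycle. None of its 5 genes was called, and 1 was higher at an unadjusted p under 0.05 with each agonist. The flavoprotein sdha differed by -0.07 ± 0.07 with T0901317 and -0.02 ± 0.06 with GW3965, and the iron-sulfur protein sdhb by -0.07 ± 0.07 and -0.09 ± 0.06. The GW3965 arrays of sdhb, at 3.86 to 3.89, lay below its DMSO arrays, at 3.91 to 4.07 (adjusted p = 0.49 by limma). On the dimmer sdhb probe these groups overlap. The anchor sdhc read 5.07, 4.84, 4.86 and 5.15 with DMSO, 5.08, 5.26 and 5.26 with T0901317, with 4.86 on the array left out, and 5.16, 5.14, 5.09 and 5.2 with GW3965. Its groups overlap, with differences of 0.22 ± 0.09 (adjusted p = 0.30) and 0.17 ± 0.09 (adjusted p = 0.33). The anchor copy sdhdb read 1.98, 1.90, 1.96 and 2.04 with DMSO, 1.92, 2.03 and 1.93 with T0901317, with 1.61 on the array left out, and 2.08, 2.17, 2.20 and 2.11 with GW3965. The GW3965 arrays lie above all the others, for a difference of 0.17 ± 0.06 from DMSO (adjusted p = 0.18). On the dimmer sdhdb probe the groups overlap, with differences of 0.03 with T0901317 and 0.02 with GW3965, neither called. The dim copy sdhda was measured too loosely to compare, with a 95% interval from -0.16 to 1.17 with T0901317.

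Complex III takes electrons from ubiquinol and hands them to cytochrome c. None of its 8 genes, cytochrome c included, was called when the brightest probe stood for each, with 0 at an unadjusted p under 0.05 with T0901317 and 1 higher with GW3965. The median difference was 0.06 with T0901317, with 6 above 0, and 0.08 with GW3965, with 7 above 0. On DMSO replicate 2, all 8 were below their DMSO mean. cyc1, the cytochrome c1 subunit, differed by 0.02 ± 0.06 and 0.05 ± 0.06, and the cytochrome c gene cycsb by 0.12 ± 0.10 and 0.08 ± 0.09. The dimmer cycsb probes gave -0.048 and -0.016 with T0901317, and -0.045 and -0.03 with GW3965, none of them called. uqcrh, the hinge protein that helps dock cytochrome c1 with cytochrome c, differed by 0.06 ± 0.09 and 0.09 ± 0.08. uqcrq, a small subunit, had the smallest p of the complex with both agonists. It read 4.95, 4.59, 4.72 and 4.73 with DMSO, 4.90, 4.95 and 4.96 with T0901317, with 4.67 on the array left out, and 4.88, 5.07, 4.94 and 4.95 with GW3965. DMSO replicate 1 lies among the agonist arrays and the other 3 DMSO arrays lie below them. The differences were 0.19 ± 0.09 (adjusted p = 0.37) and 0.21 ± 0.08 (adjusted p = 0.19).

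uqcrb, known as the ubiquinone-binding protein, had 3 probes, and 1 of them stood apart. The brightest differed by 0.11 ± 0.08 with T0901317 and 0.03 ± 0.08 with GW3965, and the other bright probe by 0.10 and 0.15. The dimmest probe read -2.39, -2.45, -2.25 and -2.49 with DMSO, -2.89, -2.93 and -2.81 with T0901317, with -3.74 on the array left out, and -3.62, -3.65, -3.43 and -3.24 with GW3965. On the arrays compared its 3 groups do not overlap, DMSO being highest and GW3965 lowest, while the T0901317 array left out lies below every other array. In the fit of every probe it fell by 0.49 on the log2 scale with T0901317 (adjusted p = 0.042) and by 1.09 with GW3965 (adjusted p = 0.00024). Among all genes with a mean level below -2, 1.09% were called lower with T0901317 and 5.92% with GW3965. With the mean of its 3 probes standing for uqcrb, the GW3965 difference became -0.30 (adjusted p = 0.030) and so changed sign.

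**Figure D3:**
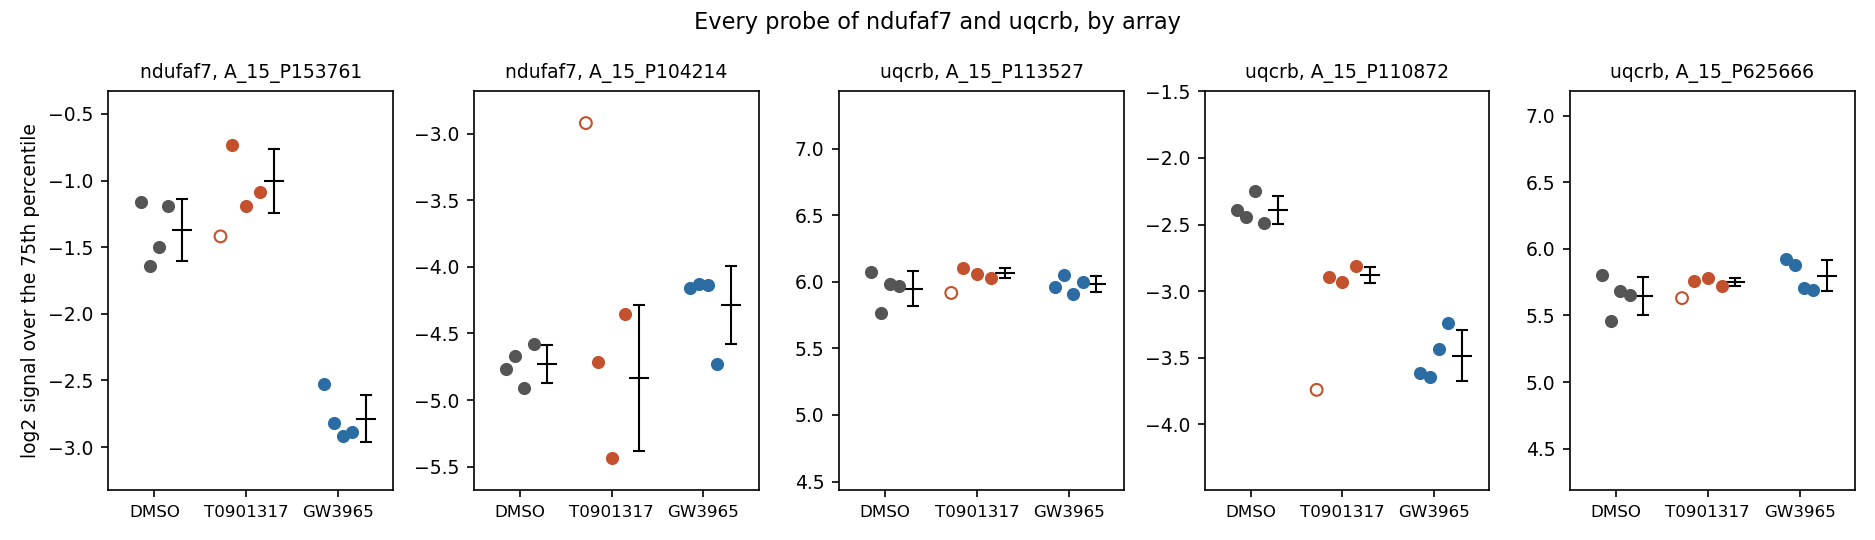
Log2 signal over the 75th percentile (vertical axis) of both ndufaf7 probes and all 3 uqcrb probes on every array. Filled points are the arrays compared, the open point is T0901317 replicate 2, which was left out, and the bars are mean and SD; each panel spans the same log2 range. On the arrays compared, the brighter ndufaf7 probe and the dimmest uqcrb probe are lowest with GW3965, and the other probes are not. The open point of the dimmest uqcrb probe lies below its GW3965 points.

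Complex IV, cytochrome c oxidase, gave the 1 gene of the set that was called with both agonists. cox6a2 encodes the form of subunit VIa that mammals make in heart and skeletal muscle. It read 2.37, 2.02, 1.96 and 2.12 with DMSO, 3.04, 3.19 and 3.28 with T0901317, with 2.85 on the array left out, and 2.89, 2.85, 2.75 and 2.92 with GW3965. All agonist arrays lie above all DMSO arrays. The level was 2.08-fold higher with T0901317 (log2 difference 1.06 ± 0.11, adjusted p = 0.00051) and 1.66-fold higher with GW3965 (0.73 ± 0.10, adjusted p = 0.0019). These differences stand at the percentiles 99.3 and 99.4 of all genes tested.

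The second cox6a2 probe read 1.87, 1.33, 1.37 and 1.57 with DMSO, 2.32, 2.56 and 2.29 with T0901317, with 2.07 on the array left out, and 2.39, 2.00, 2.1 and 2.00 with GW3965. It was higher by 0.86 with T0901317 (adjusted p = 0.013) and by 0.59 with GW3965 (adjusted p = 0.032), again without overlap. The call held in all 25 alternative settings for each agonist, among them every array left out in turn, other scalings and T0901317 replicate 2 put back. Over these, the difference ran from 0.96 to 1.14 with T0901317 (adjusted p at most 0.025) and from 0.66 to 0.82 with GW3965 (adjusted p at most 0.031).

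The paralog cox6a1, whose mammalian counterpart is made in most tissues, did not pass. It read 6.45, 6.26, 6.32 and 6.21 with DMSO, 6.43, 6.49 and 6.37 with T0901317, with 6.16 on the array left out, and 6.34, 6.48, 6.33 and 6.29 with GW3965. The groups overlap, with differences of 0.12 ± 0.08 (95% interval -0.06 to 0.30) and 0.05 ± 0.08 (-0.12 to 0.21). The dimmer cox6a1 probe gave -0.04 with T0901317 and -0.09 with GW3965, neither called. cox7a1, chosen after its values were seen as another subunit with a muscle form in mammals, differed by 0.19 ± 0.15 and 0.28 ± 0.14, with adjusted p of 0.64 and 0.29.

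**Figure D4:**
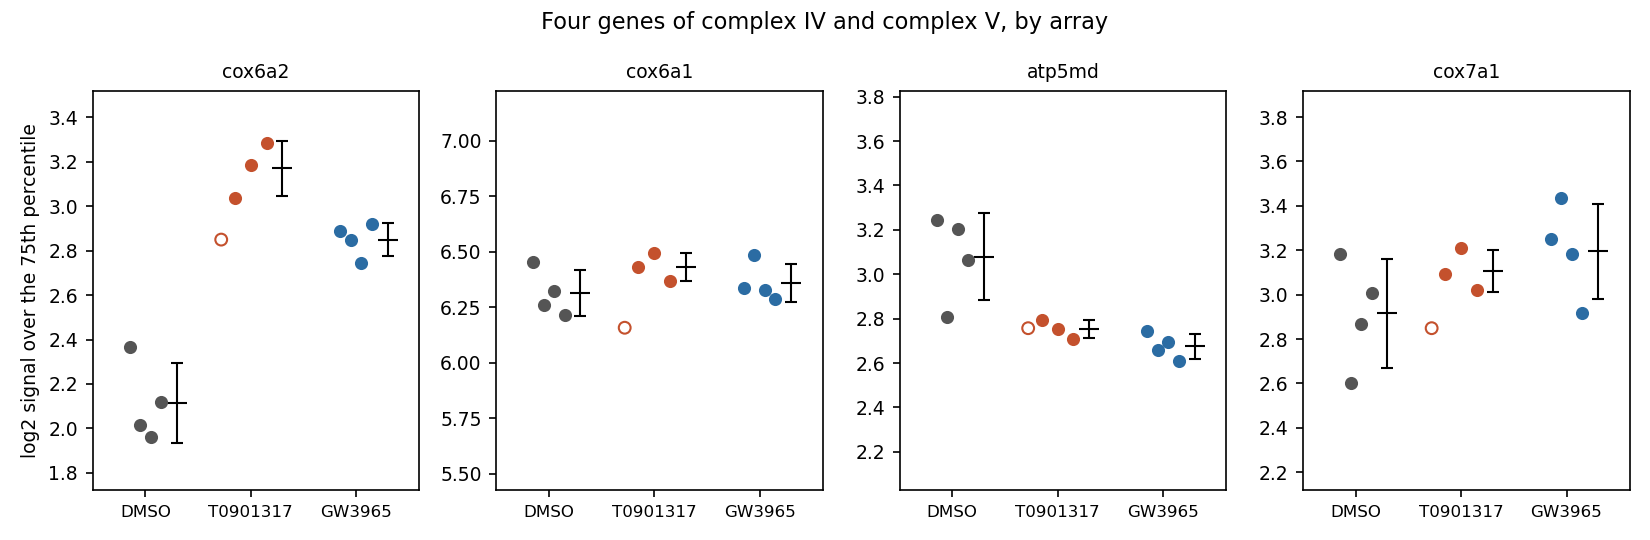
Log2 signal over the 75th percentile (vertical axis) of cox6a2, cox6a1, atp5md and cox7a1 on every array. Filled points are the arrays compared, the open point is T0901317 replicate 2, which was left out, and the bars are mean and SD. All agonist points of cox6a2 lie above the DMSO points and all agonist points of atp5md below them, while the groups overlap for cox6a1 and cox7a1.

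No muscle marker was called higher beside cox6a2. Of 28 fast skeletal muscle genes tested, 0 were called with T0901317, also at an unadjusted p under 0.05, and 1 fell with GW3965, the myosin light chain mylpfa (log2 difference -0.28, adjusted p = 0.042). With GW3965, 3.57% of the 28 were called, beside 5.69% of all genes. At an unadjusted p under 0.05, 6 of the 28 were lower and 0 higher with GW3965, and 18 had a difference below 0. The mylpfa call was lost in 17 of the 25 alternative settings, and its 2 dimmer probes gave -0.03 each. Of 16 slow muscle genes, 1 fell with each agonist (6.25%, beside 2.57% and 5.69% of all genes) and none rose. It was the slow myosin heavy chain smyhc1, which fell by 0.52 with T0901317 (adjusted p = 0.0091) and by 0.57 with GW3965 (adjusted p = 0.0022). Of its 2 other probes, 1 gave -0.41 and -0.64 and 1 gave -0.06 and -0.04, none of them called. Of 13 heart genes, 0 were called with either agonist, 1 higher with each at an unadjusted p under 0.05 and 1 lower with GW3965. The summed linear level of the fast muscle list was 5598 to 6521 with DMSO, 5512 to 6093 with T0901317 and 5290 to 5707 with GW3965. That of the slow list was 553 to 691.7, 556.5 to 678.9 and 587.2 to 637.5, and that of the heart list 13.59 to 15.99, 13.88 to 15.74 and 13.88 to 14.31. The ranges of the groups overlap for all 3 lists. Every tested marker of these lists was well above background on all arrays of each group, except for 1 heart gene with GW3965. Of the other tissues of a larva, 1 of 18 hepatocyte markers rose with each agonist (fabp10a) and 2 fell with GW3965 (cp and shbg). Of 17 enterocyte markers, 1 rose with each agonist (apoa4a). With T0901317, 5 fell (apoa4b.1, apoa4b.2, chia.3, slc6a19a.1 and alpi.2), and with GW3965, 2 fell (ada and slc6a19a.1). At an unadjusted p under 0.05, 3 hepatocyte markers were higher and 7 lower with T0901317, and 1 higher and 5 lower with GW3965. For enterocyte markers it was 1 higher and 8 lower with T0901317, and 3 higher and 3 lower with GW3965. With T0901317 the called share was 5.56% of hepatocyte and 35.3% of enterocyte markers, beside 2.57% of all genes. With GW3965 it was 16.7% and 17.6%, beside 5.69%. Over the 25 alternative settings, fabp10a lost its call in 15 with T0901317 and in 14 with GW3965. With GW3965, shbg lost its call in 15 and cp in 7. No enterocyte call against DMSO was lost in more than 5. Of 18 neuron markers 0 were called, with 1 higher at an unadjusted p under 0.05 with each agonist. The summed level of the hepatocyte list was 921.8 to 1050 with DMSO, 1053 to 1158 with T0901317 and 923.1 to 1169 with GW3965. Its T0901317 range lies just above its DMSO range. Yet 13 of the 18 hepatocyte markers had a difference below 0 with T0901317 (median -0.16), and 13 with GW3965 (median -0.14). The sum weighs bright genes most, and fabp10a read 7.61 to 7.90 with DMSO and 8.15 to 8.27 with T0901317. Its dimmer probe gave 0.26 with T0901317 and 0.28 with GW3965, neither called. For the enterocyte and neuron lists the ranges of the groups overlap. The cells in which cox6a2 rose were not tested.

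The other 14 genes of complex IV did not pass with either agonist. The median difference of the complex was 0.11 with T0901317, with 13 of 15 above 0, and 0.13 with GW3965, with 14 above 0. Of all genes, 59% and 51.9% were above 0. The median of all genes with a mean level above 4 was 0.05 with T0901317 and 0.08 with GW3965. Between 2 and 4 it was 0.04 and 0.09. The signs of the complex are those of the brightest probes. The dimmer cox6b2 probe gave -0.12 and -0.17, and that of cox5aa 0.08 and 0.14, none of them called. The other ndufa4a probes were above 0 with both agonists. On DMSO replicate 2, 14 of the 15 genes were below their DMSO mean. At an unadjusted p under 0.05, 2 of the 15 were higher and 0 lower with each agonist, cox6a2 included. cox5b2, a form of a subunit facing the matrix, read 1.75, 1.19, 1.42 and 1.36 with DMSO, 1.67, 1.80 and 1.84 with T0901317, with 1.55 on the array left out, and 1.75, 1.72, 1.70 and 1.51 with GW3965. DMSO replicate 1 lies among the agonist arrays. Its T0901317 difference was 0.34 ± 0.12 (adjusted p = 0.22), and without DMSO replicate 1 it was 0.45 (adjusted p = 0.047). Its 2 other probes gave -0.08 and 0.20 with T0901317, and -0.37 (adjusted p = 0.060) and -0.10 with GW3965, where the brightest gave 0.24. cox7c read 6.97, 6.58, 6.69 and 6.95 with DMSO, 6.96, 6.86 and 6.88 with T0901317, with 6.76 on the array left out, and 7.03, 7.10, 7.02 and 7.06 with GW3965. The GW3965 arrays lie above the rest, for a difference of 0.26 ± 0.09 from DMSO (adjusted p = 0.15). cox4i2, whose mammalian form responds to low oxygen, differed by 0.11 ± 0.10 and 0.15 ± 0.09. Its dimmer probe gave -0.26 and -0.02, neither called. ndufa4b differed by -0.29 ± 0.14 and -0.23 ± 0.13, and its copy ndufa4a by 0.05 ± 0.10 and 0.05 ± 0.09.

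Complex V, the ATP synthase, has a catalytic head, a stalk and a ring of c subunits in the membrane. None of its 17 genes passed with T0901317, where 1 was lower at an unadjusted p under 0.05, and 1 fell with GW3965. The catalytic head genes atp5fa1 and atp5f1b differed by between -0.01 and 0.06 over both agonists. The inhibitor genes atp5if1a and atp5if1b, which restrain ATP breakdown, differed by 0.01 ± 0.09 and 0.14 ± 0.12 with T0901317, and by 0.10 ± 0.08 and 0.20 ± 0.11 with GW3965, none of them called. The dimmer atp5if1b probe gave -0.19 with T0901317 and -0.15 with GW3965.

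atp5md encodes the small membrane subunit also known as DAPIT, which in mammals helps keep the ATP synthase stable. It read 3.25, 2.81, 3.20 and 3.06 with DMSO, 2.79, 2.75 and 2.71 with T0901317, with 2.76 on the array left out, and 2.74, 2.66, 2.69 and 2.61 with GW3965. All agonist arrays lie below all DMSO arrays. DMSO replicate 2 lies just above them, at 2.81. The GW3965 level was 1.32-fold lower (log2 difference -0.40 ± 0.10, adjusted p = 0.033). With T0901317 the difference was -0.33 ± 0.10 (adjusted p = 0.15). The GW3965 call was lost in 11 of the 25 alternative settings. It was lost when any 1 of DMSO replicates 1, 3 and 4 or of the 4 GW3965 arrays was left out (differences from -0.43 to -0.35, adjusted p from 0.058 to 0.091). Without DMSO replicate 2 the difference was -0.49 (adjusted p = 0.0063), and the T0901317 difference was -0.42 with an adjusted p of 0.046. The gene had a single probe.

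Among the c subunit genes, atp5mc3b read 7.83, 7.47, 7.49 and 7.72 with DMSO, 7.85, 7.90 and 7.75 with T0901317, with 7.45 on the array left out, and 7.89, 7.86, 7.85 and 7.90 with GW3965. The GW3965 arrays lie just above the DMSO arrays, for a difference of 0.25 ± 0.09 (adjusted p = 0.15). The other atp5mc3b probes gave -0.157, 0.12 and 0.113 with GW3965, and -0.245, 0.124 and 0.036 with T0901317, none of them called. atp5mc1 and atp5mc3a differed by between -0.11 and -0.07 with both agonists, none of them called. The dimmer atp5mc1 probe gave 0.022 with T0901317 and 0.005 with GW3965. atp5pf, a stalk subunit, read 2.23, 2.25, 2.24 and 2.32 with DMSO, 2.25, 2.42 and 2.33 with T0901317, with 2.15 on the array left out, and 2.38, 2.55, 2.49 and 2.42 with GW3965. Again the GW3965 arrays lie above the DMSO arrays, by 0.20 ± 0.07 (adjusted p = 0.13).

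Set directly against GW3965, T0901317 gave 1 higher gene of the 81 and 0 lower by limma, with 2 higher and 1 lower at an unadjusted p under 0.05, where 10.9% and 2.57% of all genes were. On 2 genes the T0901317 arrays lay wholly above the GW3965 arrays and on 4 wholly below, where 10.4% and 4.57% of all genes did so. Over all genes tested, 5.39% were called in this comparison, 5.25% higher and 0.136% lower. Below a mean level of -2 it was 9.38% higher and 0.109% lower, and between -2 and 0 it was 4.05% and 0.174%. The called gene of the set was ndufaf7, 3.44-fold higher with T0901317 on its brightest probe (log2 difference 1.78 ± 0.15, adjusted p = 0.00010). Its other probe differed by -0.55 (adjusted p = 0.35), and with the mean of both probes the difference was 0.62 (adjusted p = 0.053). On its brightest probe, cox6a2 was higher on all 3 T0901317 arrays compared than on any GW3965 array, by 0.32 ± 0.11 (95% interval 0.09 to 0.56, adjusted p = 0.15). The T0901317 array left out, at 2.85, lies within the GW3965 range. On the second cox6a2 probe the agonist arrays overlap, with a difference of 0.27 (adjusted p = 0.53). For atp5md the interval of the difference ran from -0.15 to 0.30. The dim uqcrb probe was higher with T0901317 by 0.60 (adjusted p = 0.0076). The median difference of the set was -0.02, beside 0.01 for all genes, and 35 of the 81 were above 0, where 51.9% of all genes were.

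Probes of 1 gene did not always give the same sign. Of the 42 genes with several probes, all probes had the same sign for 21 with T0901317 and 25 with GW3965. The median range between the probes of a gene was 0.10 and 0.09 on the log2 scale, about the size of an SE. ndufaf7 and uqcrb were the genes with probes on opposite sides of 0 of which at least 1 was called.

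Genes that build, feed or regulate the chain were read from lists. Of 30 assembly and maturation factors outside the symbol rule, 0 were called with either agonist, and 0 with T0901317 and 2 with GW3965 had an unadjusted p under 0.05. Of 20 citric acid cycle and pyruvate dehydrogenase genes, 1 fell with T0901317 and 0 were called with GW3965, where 1 was lower at an unadjusted p under 0.05. The called share with T0901317 was 5%, beside 2.57% of all genes. pdha1b, which encodes an alpha subunit of pyruvate dehydrogenase, read -1.37, -0.93, -0.88 and -1.06 with DMSO, -1.91, -1.98 and -1.64 with T0901317, with -1.99 on the array left out, and -1.62, -1.27, -1.52 and -1.56 with GW3965. The T0901317 arrays lie below the DMSO arrays, for a difference of -0.78 (adjusted p = 0.016), and GW3965 replicate 2 lies above DMSO replicate 1. The call was lost in 6 of the 25 alternative settings. Among these were those without DMSO replicate 2 or without T0901317 replicate 1 or 3, at adjusted p from 0.054 to 0.073.

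Of 16 genes for ATP and phosphate carriers, porins and mitochondrial creatine kinases, 0 were called with either agonist, and at an unadjusted p under 0.05 there were 2 lower with T0901317, and 1 higher and 2 lower with GW3965. Of 64 mitochondrial ribosome genes, 1 fell with T0901317 and 2 with GW3965, and 0 rose. The called share was 1.56% and 3.12%, beside 2.57% and 5.69% of all genes. At an unadjusted p under 0.05, 0 were higher and 3 lower with T0901317, and 5 higher and 3 lower with GW3965. The difference was above 0 for 33 with T0901317 and for 47 with GW3965, where 59% and 51.9% of all genes were. mrpl24 of the large subunit fell by 0.78 with T0901317 (adjusted p = 0.026) and by 0.86 with GW3965 (adjusted p = 0.0057). The first of these calls was lost in 8 of the 25 alternative settings. Among these, any 1 of DMSO replicates 2, 3 and 4 or T0901317 replicates 1 and 3 was left out (adjusted p from 0.054 to 0.10). The second call was lost when T0901317 replicate 2 was put back (adjusted p = 0.053). On that array mrpl24 read -2.43, within its DMSO range of -2.62 to -2.29. mrpl40 fell by 0.96 with GW3965 (adjusted p = 0.035), a call lost in 11 of the 25 alternative settings. Among these were those without any 1 of DMSO replicates 2, 3 and 4 or GW3965 replicates 1, 2 and 3 (adjusted p from 0.065 to 0.098).

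Of 13 tested regulators of mitochondrial transcription, replication and biogenesis, 0 were called with T0901317, where 1 was higher at an unadjusted p under 0.05, and 1 rose and 1 fell with GW3965. The called share with GW3965 was 15.4%, beside 5.69% of all genes. gabpa, a subunit of the nuclear factor that drives many respiratory chain genes in mammals, read 0.22, 0.07, 0.10 and 0.12 with DMSO, 0.25, 0.36 and 0.23 with T0901317, with 0.25 on the array left out, and 0.61, 0.53, 0.44 and 0.41 with GW3965. The GW3965 arrays lie above all the others, by 0.37 over DMSO (adjusted p = 0.014). Its 3 other, dimmer probes gave -0.03 to 0.18, and with the mean over the probes the difference was 0.13 (adjusted p = 0.47). tefm, a mitochondrial transcription elongation factor, fell by 0.43 with GW3965 (adjusted p = 0.036), a call lost in 13 of the 25 alternatives. Its mean level was -3.29, and 5.92% of all genes below a level of -2 were called lower with GW3965.

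Of 18 hypoxia response genes, 1 fell with T0901317, and 1 rose and 2 fell with GW3965. The called share was 5.56% with T0901317 and 16.7% with GW3965, beside 2.57% and 5.69% of all genes. The oxygen sensor egln3 fell by 0.94 with T0901317 (adjusted p = 0.021) and by 0.78 with GW3965 (adjusted p = 0.021), on the brighter of its 2 dim probes. The other gave -0.01 (adjusted p = 0.99) and -0.46 (adjusted p = 0.47), and over the alternatives the differences were as small as -0.27 and -0.22. The glycolysis regulator pfkfb4b rose by 0.42 and ankrd37 fell by 0.61 with GW3965. The mean levels of egln3 and ankrd37 were -3.76 and -4.37. Below a level of -2, 1.09% of all genes were called lower with T0901317 and 5.92% with GW3965. Each of the hypoxia calls was lost in at least 8 of the alternatives.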

How the data were processed

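RNA of pooled whole larvae was hybridised to 12 1-colour Agilent arrays. The authors read the scans with Agilent Feature Extraction 11.0.1.1, per the file headers, and deposited processed signals in intensity units, linear and background-subtracted, with no scaling from array to array. The labels gave the groups and replicate numbers, and the design text the excluded array. Probes were named by RefSeq accession through the RefSeq gene table of GRCz12tu, used for names only: 25069 probes of 12858 genes were named and 18534 were not.

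Spots flagged as non-uniform or population outliers were dropped, probes missing a value on any of the 11 arrays were left out, and spots of a probe were averaged. The log2 signal minus the 75th percentile of the array was used. Probes well above background on fewer than 3 of the 11 arrays were filtered out, and each gene was represented by its brightest remaining probe. The 3 groups were fitted together, without covariates, by lmFit and eBayes of limma 3.58.1 (R 4.3.3), with 8 residual and 2.69 prior degrees of freedom. Arrays of a group are separate pools, and their number limits the precision. The script was tested on simulated data.

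The members, lists and alternatives were chosen with earlier results of these data known. The set is described by counts and medians and was not tested as a set. Named were every called member, the 2 members of each complex with the smallest p for each agonist, and paralogs of called genes. From the other lists, the genes called against DMSO were named. Other members are given as examples of their role, chosen after their values were seen. Summed marker levels are sums of linear values relative to the 75th percentile. Alternatives changed the background correction, scaling, filter, probe rule, arrays, weights, threshold and fit.

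Replicate numbers were checked for pairing by correlating the deviations of same-numbered arrays from their group means: r was 0.03, 0.13 and 0.46 between T0901317 and DMSO, 0.17, 0.04, 0.16 and 0.38 between GW3965 and DMSO, and 0.13, 0.28 and 0.50 between the agonists. Every pair exceeded 0.1 between the agonists only.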

Additional observations from a re-analysis of the deposited data

Results flagged for a closer look

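In 1 of 62 groups of 4 arrays examined, 1 array lay far from the rest of its group: the median of the 7 complex I core genes, relative to the DMSO mean, was -0.093 on GW3965 replicate 4 and between -0.009 and 0.008 on the other GW3965 arrays. Chance alone flags about 1 group in 20.

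The agonists differed by the test of the difference itself at the brightest probe of ndufaf7 (log2 difference 1.784, T0901317 minus GW3965), whose other probe did not follow, and at the dim probe of uqcrb (0.603), whose 2 brighter probes did not follow. The labelled doses differ as well as the compounds.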

How the results depend on the processing

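Leaving out each array in turn gave 1 to 2 members higher and 0 to 1 lower with T0901317, 1 higher and 1 to 2 lower with GW3965, and 1 higher and 0 lower between the agonists. A fit of every probe gave 1 member lower with T0901317 and 2 higher between the agonists, by the uqcrb probe, and the mean over probes gave 0 higher between the agonists and put uqcrb at -0.303 and the heart marker tnnt2a at -0.522 with GW3965, signs opposite to those of their brightest probes. With array weights GW3965 gave 2 higher (atp5mc3b joined, at 0.298) and 1 lower. A fit of only the 2 groups compared, a threshold of 0.01 and leaving out replicate number 4 of all groups, added after seeing the data, each gave 1 lower with GW3965. Wherever atp5md and ndufaf7 lost a call the direction stayed, and the cause was not tested. The median of the set ran from 0.004 to 0.077 with T0901317 and from 0.018 to 0.113 with GW3965, and between the agonists from -0.07 to 0.014. With the replicate block it was 0.039, 0.08 and -0.03, and the block changed no call of a member. Over all genes the T0901317 count of 607 fell to 251 without T0901317 replicate 1 and to 257 without DMSO replicate 2, and rose to 929 with every probe; the GW3965 count of 1342 fell to 701 with T0901317 replicate 2 put back; the count of 1271 between the agonists fell to 785 with normexp. Slide as a random block was not run, since each slide holds 1 group.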
